A study of Mus musculus with 27 samples.

Results

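Matricellular proteins are secreted into the extracellular matrix but act mainly on cells and on the assembly of other matrix proteins rather than as load-bearing fibers. The 10 genes described here are those for periostin (Postn), tenascin-C (Tnc), tenascin-X (Tnxb), SPARC (Sparc), the thrombospondins 1 to 4 (Thbs1, Thbs2, Thbs3 and Thbs4), osteopontin (Spp1) and fibronectin (Fn1). They were taken by their symbols from the read count tables of cardiac fibroblasts and of whole hearts, in which 10 of 22855 listed genes carry these names. All mice were C57Bl/6, with no further allele or treatment in the labels, and were harvested at 5 ages, as newborns on postnatal day 1, at 4 or 14 weeks, and at 1 or 1.5 years (18 months). Cardiac fibroblasts were cells sorted by flow cytometry for PDGFRα, a surface receptor of mesenchymal cells, from ventricles freed of atria and valves, with 3 samples at postnatal day 1, 3 at 4 weeks, and 2 at each of the 3 later ages. Whole hearts were sampled with 3 samples at every age. The design text of the series mentions myocardial infarction, but no sample label names an infarct, and whether any animal was injured is not stated there. The study's methods describe separate animals and separate fibroblast isolations at each age, more of them than the samples analysed here for the later ages. The labels do not tie samples to animals, so the p-values measure the spread between samples of the same tissue and age, not between known animals. The question put to these data was how the expression of this group moved from birth to old age in the fibroblasts, and whether the whole organ moved the same way.

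As background, these proteins are produced in quantity by mesenchymal cells during development and after injury, and at lower levels in resting adult tissue. They bind collagens, growth factors and each other, and signal through integrins, CD36, CD47 and the scavenger receptor LRP1. Fibronectin is the adhesive glycoprotein onto which other matrix proteins are laid, and in the heart periostin and tenascin-C are widely used as marks of activated fibroblasts.

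The libraries held between 54615898 and 76758831 counted reads for the fibroblasts and between 46091271 and 67984404 for the hearts. Levels are given as CPM (read counts scaled to a common library total), with library sizes scaled by the trimmed mean of M values within each tissue, and changes as log2 fold change ± SE from the edgeR quasi-likelihood test, with p-values adjusted over all genes tested and 0.05 as the threshold. The 6 fibroblast marker genes summed to 16750 to 27690 CPM in the sorted cells against 628 to 1094 CPM in the hearts, and 7 cardiomyocyte markers to 13.8 to 726 CPM against 34770 to 83850 CPM. None of the 9 endothelial or 9 macrophage markers was without counts in the sorted cells: the endothelial sum was 486 to 737 CPM at postnatal day 1, 650 to 2164 at 4 weeks, 1574 to 1863 at 14 weeks, 578 to 786 at 1 year and 356 and 1619 at 1.5 years, and the macrophage sum was highest at 4 weeks, at 398 to 710 CPM. Xist, transcribed from the inactive X chromosome, lay between 0.0183 and 0.49 CPM in all 10 samples of 14 weeks and 1 year, and Ddx3y, on the Y chromosome, between 0.0347 and 0.392 CPM in all 5 samples of 1.5 years. The labels give no sex. Samples of 14 weeks and 1 year shared the same pattern of these genes, and for comparisons of 1.5 years with either of them sex and age cannot be told apart. In the 6 samples of postnatal day 1 Xist was at 147 to 470 CPM and Ddx3y at 6.41 to 39.2 CPM. In the 6 samples of 4 weeks they were at 6.55 to 599.5 and 1.73 to 50.5 CPM. Each fibroblast library of these 2 ages held both genes: Xist at 147 to 289 and Ddx3y at 33.2 to 38.8 CPM at postnatal day 1, and 383 to 599.5 and 25.1 to 50.5 CPM at 4 weeks. Comparisons of postnatal day 1 or 4 weeks with later ages thus also differ in this pattern, and the part of sex in them was not tested. Whether samples pooled several mice is not given in the labels, and the part of pooling in the spread between samples was not tested. The mitochondrial share of fibroblast reads was 6.15% to 9.18% at postnatal day 1, 7.83% in 1.5-year replicate 5 and 1.74% to 3.84% in the other later samples. Replicate 5 was the lower of the 1.5-year samples for every gene of the group but Thbs2, although its Spp1 level was nearly equal (0.452 against 0.455 CPM). The part of this mitochondrial share in the differences was not tested. In bulk samples of this kind fewer cells of a type and less RNA per cell cannot be told apart either.

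In the fibroblasts the whole group took 2.42% to 3.17% of all counted reads at postnatal day 1, 1.68% to 1.75% at 4 weeks, 1.15% to 1.18% at 14 weeks, 1.47% to 1.73% at 1 year and 0.91% to 1.13% at 1.5 years. From postnatal day 1 to 4 weeks, 9 of the 10 genes passed the threshold beside 15.5% of all 18759 genes tested. The 7 that fell were Postn, Tnc, Thbs1, Thbs2, Thbs3, Spp1 and Fn1, where 6.2% of all genes fell. The 2 that rose were Tnxb and Thbs4, where 9.28% of all genes rose, while Sparc differed by 0.38 ± 0.16 (adjusted p = 0.144). The median change of the group was -0.87 on the log2 scale against 0.0039 over all genes, the same with Spp1 at its fitted value or at the bound given for it. All 10 were called in the test across the 5 ages, beside 19.9% of all genes, but the call of Spp1 (adjusted p = 0.0449) was lost without 11 of the 12 libraries left out in turn (0.074 to 0.102).

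**Figure D1:**
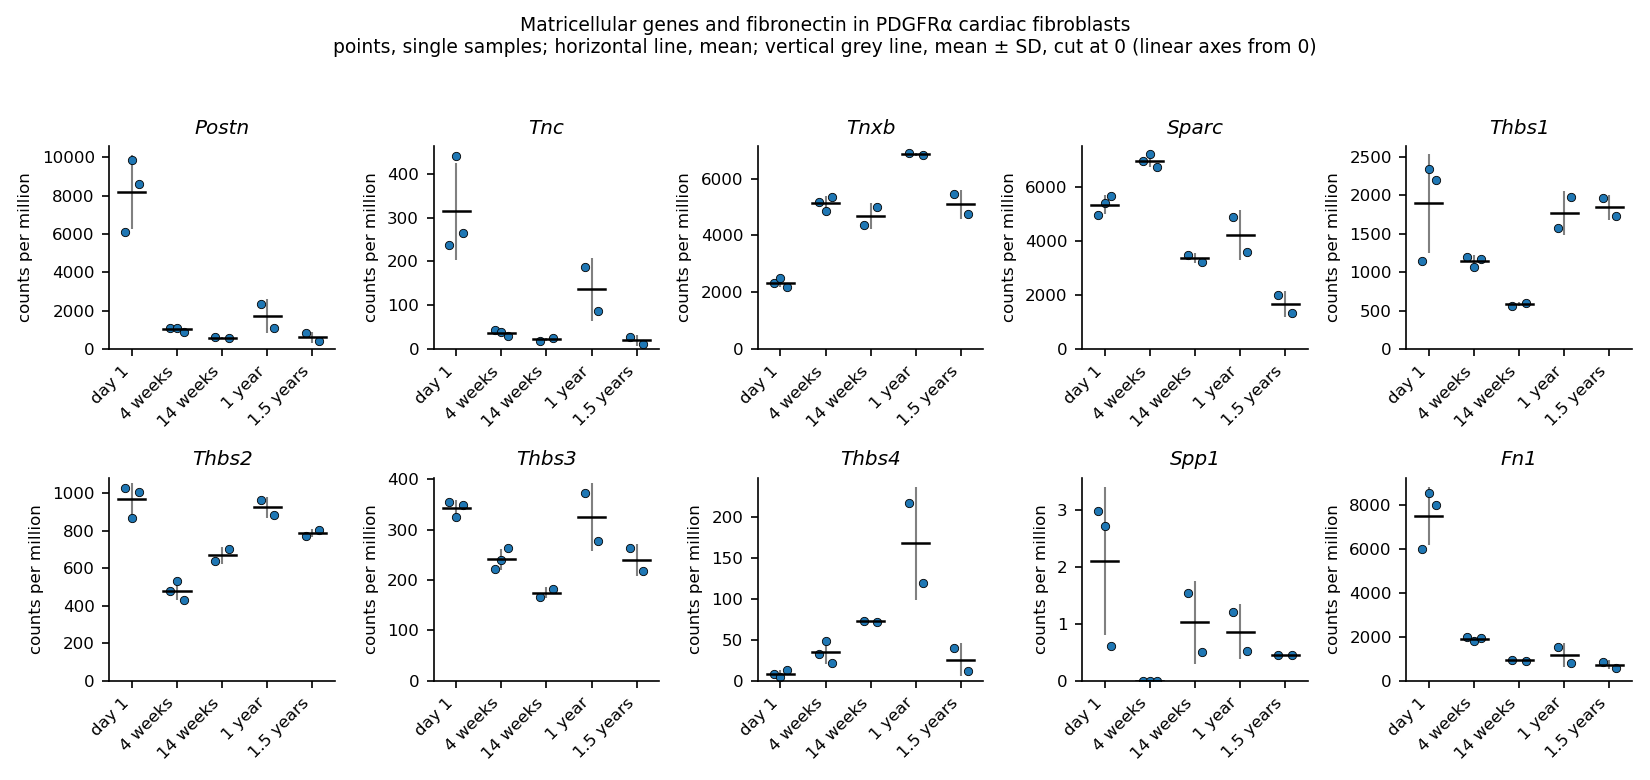
Level of each gene in CPM (vertical axis, linear from 0) in every fibroblast sample by age (horizontal axis), with the mean as a horizontal line and the SD as a grey line. Postn, Tnc and Fn1 were highest at postnatal day 1, Tnxb and Thbs4 lowest on average, and the 2 samples of 1 year lay above those of 14 weeks for 8 of the genes, where 53.4% of all genes did not overlap between these samples in either direction.

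The 5′ flanks of 4 genes that moved in opposite directions after birth are shown so that their sequence can be read beside their levels: Postn and Tnc, which had the largest fitted falls after Spp1, and Tnxb and Thbs4, which rose. Each is the 250 bases before the RefSeq transcription start in GRCm38.p6, on the strand of the gene, with capitals marking matches on either strand to TATAAA (the letters of the TATA box, at any position), GGGCGG (a GC box), TGANTCA (the AP-1 site) or GGAATG (the TEAD site).
Postn, chr3:54360857-54361106, plus strand: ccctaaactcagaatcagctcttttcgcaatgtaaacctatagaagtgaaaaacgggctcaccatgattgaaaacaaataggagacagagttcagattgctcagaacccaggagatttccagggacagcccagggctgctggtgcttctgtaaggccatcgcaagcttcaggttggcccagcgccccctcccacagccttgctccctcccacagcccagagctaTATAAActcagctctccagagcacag
Tnc, chr4:64047016-64047265, minus strand: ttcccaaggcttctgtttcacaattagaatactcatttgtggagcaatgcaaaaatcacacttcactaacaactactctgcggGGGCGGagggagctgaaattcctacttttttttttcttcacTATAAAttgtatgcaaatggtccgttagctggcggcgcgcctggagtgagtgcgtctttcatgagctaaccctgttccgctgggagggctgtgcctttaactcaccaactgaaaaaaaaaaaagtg
Tnxb, chr17:34670285-34670534, plus strand: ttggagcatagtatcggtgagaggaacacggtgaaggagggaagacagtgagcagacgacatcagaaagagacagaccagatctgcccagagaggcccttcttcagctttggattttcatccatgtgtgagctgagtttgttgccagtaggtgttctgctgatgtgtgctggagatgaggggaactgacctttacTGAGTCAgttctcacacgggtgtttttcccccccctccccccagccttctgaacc
Thbs4, chr13:92794819-92795068, minus strand: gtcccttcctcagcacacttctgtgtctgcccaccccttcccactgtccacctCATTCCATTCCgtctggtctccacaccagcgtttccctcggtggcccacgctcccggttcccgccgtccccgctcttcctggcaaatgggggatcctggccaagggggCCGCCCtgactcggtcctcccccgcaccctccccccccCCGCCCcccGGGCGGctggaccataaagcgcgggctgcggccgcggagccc
Postn had a TATAAA match 26 bases before its start and Tnc a match 126 bases before its own, and neither Tnxb nor Thbs4 had one. The motif was in 4 of the 8 promoters of the group, also those of Thbs2 and Spp1 and not that of Thbs3, which fell too. In Thbs2, on the opposite strand, and in Spp1 it lay 126 and 211 bases before the start. The RefSeq start used lay 3103 bases from the annotated gene start for Sparc and 27 bases for Thbs2. Over all 32851 RefSeq promoters of this length 12.4% held TATAAA. Tnc also held a GGGCGG match, 167 bases before the start. Tnxb held a single TGANTCA match, 55 bases before the start, a motif found in 6.75% of all promoters. Thbs4 held 3 GGGCGG matches and 2 GGAATG matches that overlap by a base, and these motifs occur in 32.7% and 12.6% of all promoters. These are matches of letters within a window and were not tested for binding. Of the group, 8 of 10 genes had an entry among these sequences.

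Periostin, which binds collagen and promotes its cross-linking, fell early together with tenascin-C. Postn (chr3:54361109-54391037, plus strand) read 6100, 9851 and 8617 CPM at postnatal day 1, 1128, 1113 and 886 at 4 weeks, 620 and 577 at 14 weeks, 2376 and 1109 at 1 year, and 832 and 427 at 1.5 years. The day 1 samples stood above every later sample, and the higher of the 1-year samples stood above all others after birth. The fall to 4 weeks was 7.86-fold, a log2 fold change of -2.97 ± 0.31 (adjusted p = 2.96e-05), and between postnatal day 1 and 1.5 years it was 13-fold, -3.70 ± 0.38 (adjusted p = 2.04e-05). From 4 to 14 weeks the difference was -0.80 ± 0.33 (adjusted p = 0.261). At 1 year Postn was 1.54 ± 0.36 above 14 weeks with an adjusted p of 0.0532, a value that passed the threshold with DESeq2 (adjusted p = 0.00909) but was 0.89 (adjusted p = 0.536) without 1-year replicate 4 and had an adjusted p of 0.323 or 0.306 without 14-week replicate 4 or 6. The mean at 1.5 years (629.5 ± 286.5 CPM, SD, n = 2) was back beside that at 14 weeks (598.8 ± 30.4 CPM, n = 2), a difference of 0.07 ± 0.35 (adjusted p = 0.984).

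Tenascin-C, a hexameric glycoprotein that loosens cell adhesion, followed the course of periostin at a lower level per kilobase of exon (40.4 against 941 CPM per kb at postnatal day 1). Tnc (chr4:63959785-64047015, minus strand) was at 237, 441 and 265 CPM at postnatal day 1, at 44.1, 39.1 and 30.4 CPM at 4 weeks, at 19.3 and 25.3 CPM at 14 weeks, at 188 and 86.3 CPM at 1 year, and at 28.9 and 11.4 CPM at 1.5 years. The samples of 1 year were separate from those of 4 and 14 weeks and those of 1.5 years, and still below every day 1 sample. Tnc fell 8.3-fold from postnatal day 1 to 4 weeks (-3.05 ± 0.38, adjusted p = 1.34e-04). It was then 6.13-fold higher at 1 year than at 14 weeks (2.62 ± 0.46, adjusted p = 0.0143) and 6.8-fold lower at 1.5 years than at 1 year (-2.77 ± 0.46, adjusted p = 0.0346). These later calls rested on few libraries: the 1-year difference from 14 weeks was 1.95 (adjusted p = 0.135) without 1-year replicate 4 and had an adjusted p of 0.195 or 0.105 without 14-week replicate 4 or 6, and the difference of 1.5 years from 1 year was -2.1 (adjusted p = 0.269) without 1-year replicate 4 and -2.25 (adjusted p = 0.234) without 1.5-year replicate 5. It also had adjusted p-values between 0.0526 and 0.0641 without day 1 replicate 3 or 4-week replicate 1 or 2, which left its size as it was.

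Tenascin-X went the other way. This large tenascin binds fibrillar collagen and is needed for the tensile strength of connective tissue, and its gene lies at chr17:34670535-34719815 on the plus strand. Tnxb measured 2320, 2495 and 2182 CPM at postnatal day 1, 5176, 4868 and 5360 at 4 weeks, 4353 and 5005 at 14 weeks, 6893 and 6813 at 1 year, and 5461 and 4742 at 1.5 years. All later samples lay above all day 1 samples, the samples of 1 year were the highest, and those of 4 and 14 weeks and of 1.5 years overlapped. The rise to 4 weeks was 2.2-fold (1.14 ± 0.12, adjusted p = 2.72e-05), it remained at 1.13 ± 0.13 at 1.5 years against postnatal day 1 (adjusted p = 4.61e-05), and the 1-year level differed from 14 weeks by 0.55 ± 0.14 (adjusted p = 0.0809). In the same sorted fibroblast samples 1 tenascin gene thus fell by a log2 fold change of 3.05 while the other rose by 1.14.

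Fibronectin fell in steps. Fn1 (chr1:71585520-71653200, minus strand) was at 5974, 8511 and 7973 CPM at postnatal day 1, 1970, 1810 and 1959 at 4 weeks, 944 and 911 at 14 weeks, 1550 and 796 at 1 year, and 871 and 597 at 1.5 years. The first 3 ages were separate from each other, and the samples of 1 year spanned those of 14 weeks. The change was -1.97 ± 0.23 from postnatal day 1 to 4 weeks (adjusted p = 8.18e-05), -1.05 ± 0.26 from 4 to 14 weeks (adjusted p = 0.0432) and -3.35 ± 0.29 between postnatal day 1 and 1.5 years, a 10.2-fold fall (adjusted p = 4.97e-06). The call from 4 to 14 weeks was lost without day 1 replicate 3, without any single sample of 4 weeks and without either sample of 14 weeks, with adjusted p-values between 0.0579 and 0.287 and changes between -1.08 and -1.02. Among the later ages no difference was called, and 1.5 years against 14 weeks gave -0.34 ± 0.27 (adjusted p = 0.622).

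SPARC, a collagen-binding protein that assists the processing and deposition of procollagen, did not share the early fall. Sparc (chr11:55394500-55423183, minus strand) was at 4976, 5394 and 5670 CPM at postnatal day 1, 6961, 7213 and 6740 at 4 weeks, 3491 and 3243 at 14 weeks, 4879 and 3578 at 1 year, and 2023 and 1325 at 1.5 years. The 5 ages did not overlap, with 4 weeks highest and 1.5 years lowest. Sparc fell 2.07-fold from 4 to 14 weeks (-1.05 ± 0.19, adjusted p = 0.00962) and by 1.01 ± 0.20 from 14 weeks to 1.5 years (adjusted p = 0.0195), 1.34 ± 0.20 below the 1-year level (adjusted p = 0.0214). Against postnatal day 1 the level at 1.5 years was 3.19-fold lower (-1.68 ± 0.19, adjusted p = 5.44e-05), and no single library changed that call. The steps after 4 weeks were more fragile. The fall to 14 weeks had an adjusted p of 0.0826 or 0.119 without 14-week replicate 4 or 6. The fall from 14 weeks to 1.5 years had 0.158 or 0.0996 without those same samples and 0.106 without 1.5-year replicate 5 (-0.74), and the fall from 1 year had 0.214 without 1-year replicate 4 and 0.152 without 1.5-year replicate 5. The endothelial marker sum, which was 1574 to 1863 CPM at 14 weeks, was 356 CPM in 1.5-year replicate 4 and 1619 CPM in replicate 5, whose Sparc levels were 2023 and 1325 CPM. The part of endothelial RNA in the Sparc difference was not tested.

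Thrombospondins 1 and 2 form trimers that bind CD36 and CD47 and restrain the growth of capillaries, and thrombospondin 1 can also release active TGF-β from its latent complex. Thbs1 (chr2:118111876-118127133, plus strand) was at 1152, 2340 and 2194 CPM at postnatal day 1, 1201, 1063 and 1176 at 4 weeks, 565 and 603 at 14 weeks, 1573 and 1974 at 1 year, and 1960 and 1727 at 1.5 years. It therefore reached its lowest level at 14 weeks and was high at both ends of life, with the old samples inside the range of the day 1 samples. Thbs1 was 3.04-fold higher at 1 year than at 14 weeks (1.60 ± 0.27, adjusted p = 0.0111) and 3.16-fold higher at 1.5 years (1.66 ± 0.27, adjusted p = 0.00756), whereas 1.5 years differed from postnatal day 1 by -0.04 ± 0.24 (adjusted p = 0.971). Without 14-week replicate 4 or 6 the adjusted p was 0.152 or 0.101 for 1 year and 0.0928 or 0.0718 for 1.5 years, with sizes of 1.56 or 1.65 and of 1.61 or 1.70, and without 1-year replicate 5 the 1-year value had an adjusted p of 0.0606. The falls from postnatal day 1 to 4 weeks (-0.73 ± 0.21, adjusted p = 0.0368) and from 4 to 14 weeks (-0.97 ± 0.25, adjusted p = 0.0465) stood near the threshold. The first was lost without day 1 replicate 2 or 3 or any single sample of 4 weeks (adjusted p 0.0735 to 0.131), the second without day 1 replicate 3 or any single sample of 4 weeks, 14 weeks or 1 year (adjusted p 0.0502 to 0.336). Over the same ages 12 immediate early and heat shock genes, which respond within minutes to cell handling, summed to 12690 to 18290 CPM at postnatal day 1, 29500 to 32980 at 4 weeks, 30050 to 33000 at 14 weeks, 37910 to 41000 at 1 year and 42400 to 44670 at 1.5 years. Their part in the Thbs1 levels was not tested.

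Thbs2 (chr17:14665500-14694235, minus strand) had its low point earlier. Its levels were 1025, 869 and 1007 CPM at postnatal day 1, 476, 534 and 431 at 4 weeks, 637 and 701 at 14 weeks, 963 and 885 at 1 year, and 773 and 801 at 1.5 years. The 4-week samples were below all others. The fall to 4 weeks was 2.02-fold (-1.01 ± 0.12, adjusted p = 8.72e-05), and the level at 1.5 years differed from postnatal day 1 by -0.30 ± 0.13 (adjusted p = 0.164). The intervening steps of 0.48 ± 0.13 from 4 to 14 weeks (adjusted p = 0.0681) and 0.47 ± 0.15 from 14 weeks to 1 year (adjusted p = 0.149) passed with DESeq2 at 0.00335 and 0.0172.

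Thrombospondins 3 and 4 assemble as pentamers, and thrombospondin 4 has been tied to the protection of heart muscle under load. Thbs3 (chr3:89215180-89226837, plus strand) shares 318 bases, 6.59% of its exons, with Mtx1 on the opposite strand, and reads from the overlap may be counted to either gene. In the same way Tnc, Thbs1 and Fn1 share 176, 208 and 292 exon bases with genes of the opposite strand. Thbs3 was at 355, 326 and 349 CPM at postnatal day 1, 221, 239 and 263 at 4 weeks, 167 and 182 at 14 weeks, 372 and 276 at 1 year, and 262 and 217 at 1.5 years. Its changes were small: -0.51 ± 0.14 from postnatal day 1 to 4 weeks (adjusted p = 0.0217), 0.89 ± 0.17 from 14 weeks to 1 year (adjusted p = 0.0189) and -0.52 ± 0.15 between postnatal day 1 and 1.5 years (adjusted p = 0.0364). The first was lost without day 1 replicate 1 or 3 or 4-week replicate 1 or 2 (adjusted p 0.0513 to 0.0831), the second without either sample of 14 weeks or 1-year replicate 4 (0.134 to 0.282), and the third without day 1 replicate 1 or 3 or any single sample of 14 weeks or 1.5 years (0.0524 to 0.302).

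Of the thrombospondin genes in the group, Thbs4 (chr13:92751590-92794818, minus strand) was the only 1 that rose after birth in the fibroblasts. Its levels were 7.65, 4.89 and 13 CPM at postnatal day 1, 32.6, 49.2 and 21.9 at 4 weeks, 72.8 and 72.3 at 14 weeks, 217 and 119 at 1 year, and 39.8 and 11.4 at 1.5 years. Each age up to 1 year was above the one before with no overlap, and the 2 samples of 1.5 years fell back to the range of postnatal day 1 and 4 weeks. The rise to 4 weeks was 4.06-fold (2.02 ± 0.47, adjusted p = 0.0105) and kept its call without any single library (adjusted p up to 0.0449). At 1.5 years Thbs4 was 1.59 ± 0.50 above postnatal day 1 (adjusted p = 0.0478), a value carried by 1.5-year replicate 4: without it the difference was 0.42 (adjusted p = 0.712). The same call was also lost without day 1 replicate 1 or 2, 4-week replicate 1 or either sample of 14 weeks (adjusted p 0.0563 to 0.138) and under both other scalings of library size (0.051 and 0.0809). The 1-year level against 14 weeks gave 1.21 ± 0.56 (adjusted p = 0.404), and 1.5 years against 1 year gave -2.72 ± 0.59 (adjusted p = 0.113; 1.18e-04 with DESeq2). A list of 5 tendon and valve markers included Comp, which is also counted below among the other matricellular genes. The list summed to 19 to 31.9 CPM at postnatal day 1, 38.5 to 70 at 4 weeks and 153 to 250 at 14 weeks. It summed to 217 to 226 at 1 year and 333 to 418 at 1.5 years. The sum was thus higher with Thbs4 up to 14 weeks and highest at 1.5 years, where Thbs4 was low. The markers did not move together. From postnatal day 1 to 4 weeks Comp (4.19) and Chad (6.80) were called higher, while Fmod (-0.31) and Scx (-1.67) were not called. From 14 weeks to 1.5 years Comp (1.81) and Scx (0.57) were higher and Fmod (-1.195), Chad (-3.69) and Tnmd (-7.62) lower, none of them called. Their part in the Thbs4 levels was not tested.

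Osteopontin, a phosphoprotein secreted by macrophages and by bone cells, was barely expressed. Spp1 (chr5:104435118-104441050, plus strand) was at 2.98, 2.71 and 0.617 CPM in the fibroblasts at postnatal day 1, had no counted read in any of the 3 samples of 4 weeks, and was at 1.54 and 0.505 CPM at 14 weeks, 1.2 and 0.516 at 1 year, and 0.455 and 0.452 at 1.5 years. With 3 counts per library as the limit that a count of 0 allows (0.044 CPM, counting error alone), the mean at postnatal day 1 was at least 47.7-fold higher than at 4 weeks and the mean at 14 weeks at least 23.2-fold higher. Taken from the lowest sample of each age instead of the mean, these bounds were 14-fold and 11.5-fold. Both differences were called (adjusted p = 0.00729 and 0.0352). The latter was lost without any single sample of 4 weeks, 14 weeks or 1 year or 1.5-year replicate 4 (0.0507 to 0.204). The absence of Spp1 reads at 4 weeks coincided with the highest macrophage marker sums of all fibroblast samples. Against the annotation, 309 exon bases of Spp1 are shared with Gm42793 on the same strand.

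From 4 to 14 weeks, 4 of 10 were called (Sparc, Thbs1 and Fn1 lower, Spp1 higher) beside 3.87% of all genes. From 14 weeks to 1 year, 3 of 10 were called, all higher (Tnc, Thbs1 and Thbs3), beside 1.78% of all genes called and 1.31% called higher. With DESeq2 the number was 6, for which the share of all genes is not given here. From 14 weeks to 1.5 years, 2 of 10 were called beside 2.72%, Sparc lower and Thbs1 higher, and from 1 year to 1.5 years 2 of 10 beside 0.24%, Tnc and Sparc lower. None of the 3 calls at 1 year and neither of those at 1.5 years against 14 weeks was kept when a 14-week sample was left out, which leaves a single sample at that age and assumes it varies like the others. Between postnatal day 1 and 1.5 years 7 of 10 were called beside 16.3%: Tnxb and Thbs4 higher, Postn, Tnc, Sparc, Thbs3 and Fn1 lower. Across genes longer transcripts were lower at 1 year and 1.5 years than at 14 weeks (Spearman's rho of change with exon length -0.243 and -0.179 over 13057 genes, as a description). With an offset for length the 1-year count was 5, with Postn (1.67, adjusted p = 0.0464) and Tnxb (0.77, adjusted p = 0.0227) added. For that setting the share of all genes is not given either.

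In whole hearts 8 of the genes, all but Thbs4 and Spp1, were lower than in the fibroblasts at every age. The group took 0.22% to 0.29% of counted reads at postnatal day 1, 0.13% to 0.19% at 4 weeks and 0.04% to 0.06% at the 3 later ages. From postnatal day 1 to 4 weeks 7 of 10 were called beside 18.2% of 17995 genes: Postn, Tnc, Thbs2, Thbs4 and Fn1 fell, and Tnxb and Sparc rose. Library scaling matters in the hearts, where the mitochondrial share of reads ran from 10.8% to 34.5%. With totals alone as library sizes the median of all genes moved by -0.51 for this comparison and by -0.60 for 1.5 years against postnatal day 1, and the call of Sparc was lost with its sign turned (-0.05, adjusted p = 0.867).

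**Figure D2:**
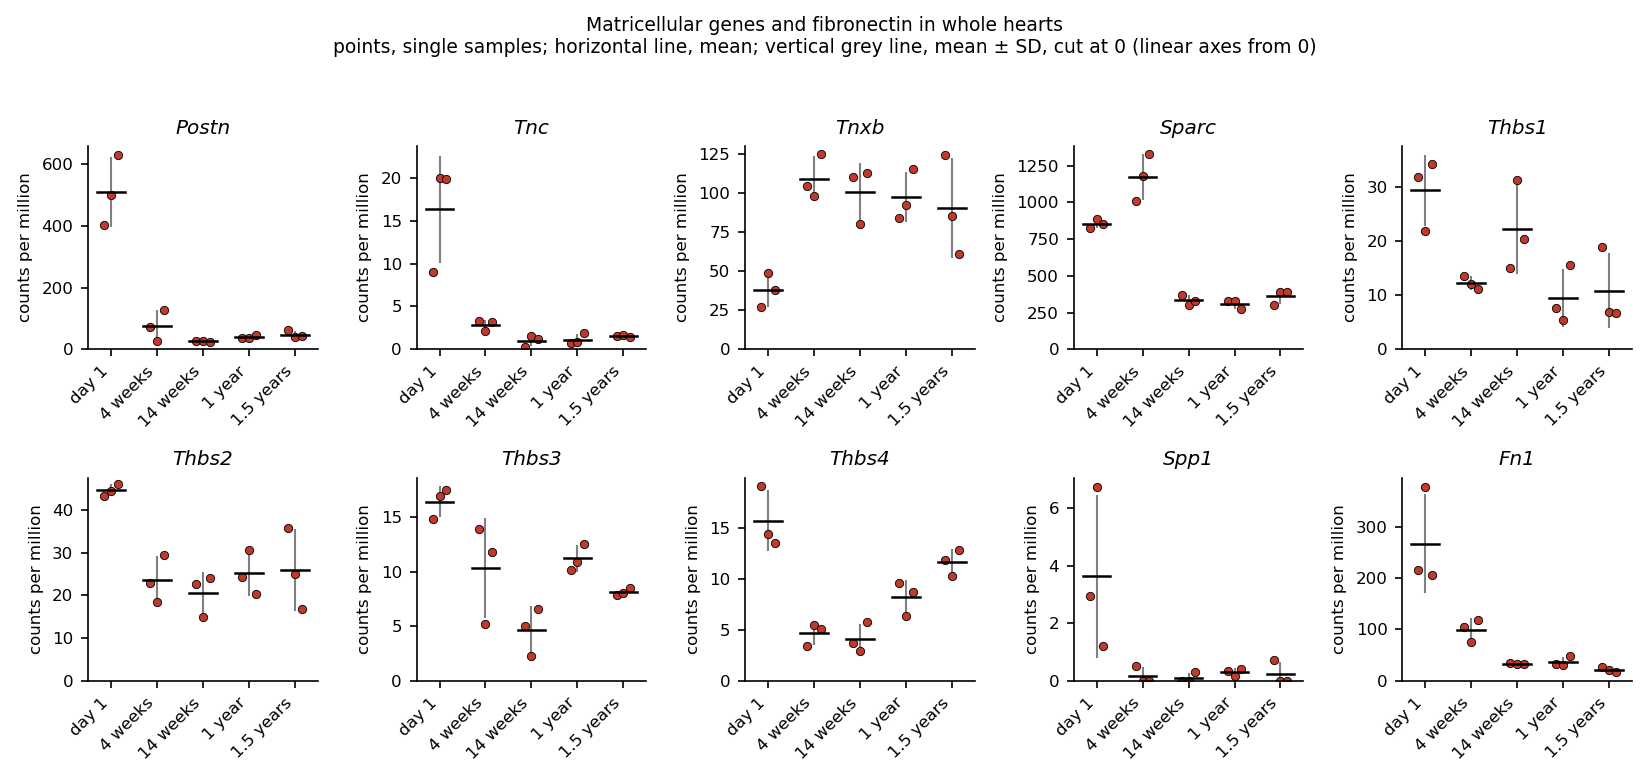
Level of each gene in CPM (vertical axis, linear from 0) in every whole-heart sample by age (horizontal axis), with the mean as a horizontal line and the SD as a grey line. Postn, Tnc and Fn1 were highest at postnatal day 1 as in the fibroblasts, Sparc dropped between 4 and 14 weeks, and Thbs4 was highest at postnatal day 1 with 11.7 CPM on average at 1.5 years.

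Postn in the hearts was at 405, 500 and 630 CPM at postnatal day 1, 73, 26.7 and 129 at 4 weeks, 28.2, 25.6 and 23.4 at 14 weeks, 37.6, 35.3 and 47.7 at 1 year, and 61.1, 39.4 and 42.8 at 1.5 years. All 6 older samples were above the 3 samples of 14 weeks, among which 4-week replicate 2 also lay. It fell by 2.75 ± 0.39 to 4 weeks (adjusted p = 7.44e-05) and by 1.56 ± 0.37 from 4 to 14 weeks (adjusted p = 0.0438), the latter resting on 4-week replicate 3, without which it was -0.95 (adjusted p = 0.271). That call was also lost without any single sample of 14 weeks (adjusted p 0.126 to 0.198), without any sample of 1 year, and without day 1 replicate 1 or 2, 4-week replicate 1 or 1.5-year replicate 2 (0.0503 to 0.0689). At 1.5 years Postn was 0.89 ± 0.37 above 14 weeks (adjusted p = 0.123). Tnc went from 9.04, 20 and 19.9 CPM at postnatal day 1 to 3.27, 2.14 and 3.14 CPM at 4 weeks (-2.52 ± 0.59, adjusted p = 0.00599), and was 0.285 to 1.85 CPM in all 9 later samples.

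Fn1 was at 217, 379 and 206 CPM in the hearts at postnatal day 1, 105, 75.3 and 118 at 4 weeks, 34.3, 31.9 and 32.7 at 14 weeks, 33.3, 31.4 and 47.3 at 1 year, and 27.8, 21 and 16.7 at 1.5 years. The first 3 ages were separate and the samples of 1.5 years were below all others. Fn1 fell by 1.42 ± 0.25 to 4 weeks (adjusted p = 6.67e-04), by 1.60 ± 0.25 from 4 to 14 weeks (adjusted p = 0.00354), and by 3.62 ± 0.27 between postnatal day 1 and 1.5 years (adjusted p = 7.54e-08). Sparc was at 828, 886 and 852 CPM at postnatal day 1, 1013, 1183 and 1327 at 4 weeks, 370, 304 and 326 at 14 weeks, 325, 329 and 271 at 1 year, and 303, 390 and 388 at 1.5 years. The drop between 4 and 14 weeks was 3.52-fold (-1.82 ± 0.15, adjusted p = 1.14e-05), after which the 3 ages overlapped. The rise before it (0.46 ± 0.14, adjusted p = 0.0358) was lost without any single sample of postnatal day 1, 4-week replicate 2 or 3, or 14-week replicate 3 (adjusted p 0.0545 to 0.156).

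Tnxb in the hearts rose from 26.8, 49 and 38 CPM at postnatal day 1 to 104, 97.9 and 125 CPM at 4 weeks (1.52 ± 0.25, adjusted p = 4.03e-04) and lay between 61.1 and 124 CPM in the 9 later samples. Scaled by totals alone, its difference of 1.25 ± 0.25 between postnatal day 1 and 1.5 years was 0.65 (adjusted p = 0.0758). Of the thrombospondin genes Thbs1 stood between 21.9 and 34.4 CPM at postnatal day 1 and between 5.32 and 31.3 CPM later, with 1.5 years 1.45 ± 0.43 below postnatal day 1 (adjusted p = 0.0171). Leaving out day 1 replicate 1 or 3 or 1.5-year replicate 2 or 3 ended that call (0.0515 to 0.0738). The fibroblasts had more Thbs1 at 1.5 years than at 14 weeks. The hearts were at 15.1, 31.3 and 20.5 CPM at 14 weeks and 18.8, 6.83 and 6.75 CPM at 1.5 years. The heart difference of -1.04 ± 0.43 was not called (adjusted p = 0.121). With single libraries left out it ranged from -1.71 to -0.72 and was called only without 1.5-year replicate 1 (adjusted p = 0.00935). Whether the tissues differed over this interval was not tested. Thbs2 was at 43.3 to 46.1 CPM at postnatal day 1 and 15 to 35.9 CPM in all 12 later samples (-0.92 ± 0.27 to 4 weeks, adjusted p = 0.0241). That call had adjusted p-values of 0.052 to 0.0945 without any single sample of postnatal day 1 or 4-week replicate 1 or 2. Thbs3 was at 14.8 to 17.5 CPM at postnatal day 1 and 2.26 to 13.95 CPM later. Its difference from postnatal day 1 to 4 weeks was -0.67 ± 0.37 (adjusted p = 0.236).

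Spp1 in the hearts was at 2.94, 6.72 and 1.2 CPM at postnatal day 1 and at 0 to 0.717 CPM in the 12 later samples, 6 of which had no counted read, and it was the member that did not pass the test across the 5 ages in this tissue (adjusted p = 0.189). The other 9 passed, beside 34.3% of all genes. Among the later ages of the hearts 3 of 10 were called from 4 to 14 weeks beside 1.61% (Postn, Sparc and Fn1 lower) and 1 of 10 from 14 weeks to 1.5 years beside 12.8% (Thbs4 higher). No member was called by edgeR from 14 weeks to 1 year (beside 0.972%) or from 1 year to 1.5 years (beside 2.66%). At an unadjusted p under 0.05 the numbers were 3 and 1, and DESeq2 called 2 and 1, with no matching shares of all genes given here. Between postnatal day 1 and 1.5 years 8 of 10 were called beside 31.8%, Tnxb higher and Postn, Tnc, Sparc, Thbs1, Thbs2, Thbs3 and Fn1 lower. In the hearts of 1.5 years longer transcripts were lower than at 14 weeks over 12976 genes (Spearman's rho -0.509, as a description). With an offset for length Thbs2 (-0.45, adjusted p = 0.171) and Thbs3 (-0.89, adjusted p = 0.08) were not called against postnatal day 1, and Postn was called higher at 1.5 years than at 14 weeks (1.35, adjusted p = 0.0184). The call of Thbs2 against postnatal day 1 (-0.79 ± 0.27, adjusted p = 0.0339) was also lost without any single sample of postnatal day 1 or 1.5-year replicate 2 or 3 (0.0794 to 0.131), and that of Thbs3 (-1.01 ± 0.38, adjusted p = 0.049) without 11 of the 15 libraries left out in turn (0.0589 to 0.134).

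**Figure D3:**
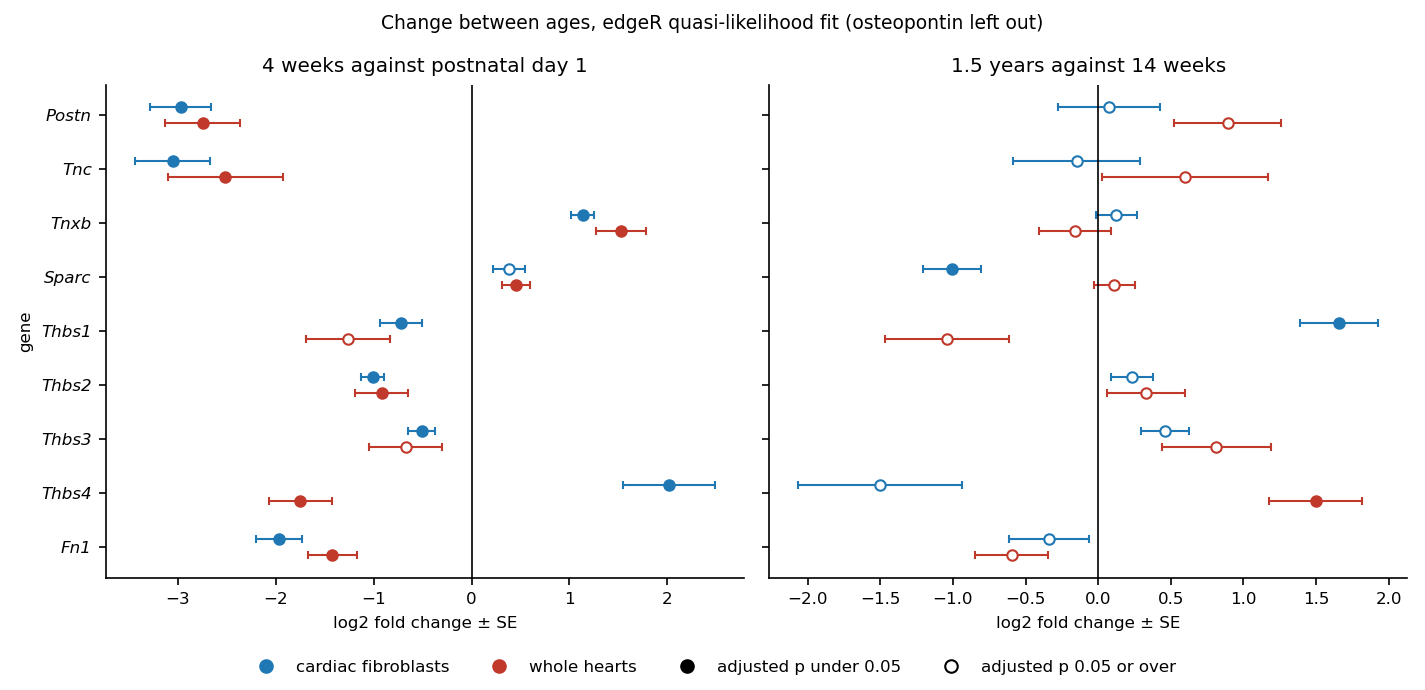
Log2 fold change ± SE (horizontal axis) of each gene but Spp1 (vertical axis) from postnatal day 1 to 4 weeks and from 14 weeks to 1.5 years, in fibroblasts (blue) and whole hearts (red), with filled points where the adjusted p was under 0.05. In the early interval only Thbs4 lay on opposite sides of 0 in both tissues with both values called, 2.02 in fibroblasts and -1.75 in hearts.

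The direction of Thbs4 separated the tissues. In the hearts Thbs4 was at 19.1, 14.4 and 13.5 CPM at postnatal day 1, 3.4, 5.5 and 5.07 at 4 weeks, 3.72, 2.92 and 5.73 at 14 weeks, 9.6, 6.37 and 8.74 at 1 year, and 11.8, 10.3 and 12.8 at 1.5 years. The course was U-shaped, with 4 and 14 weeks lowest, where the fibroblast means were highest at 1 year, with only the step to 4 weeks called. The heart level fell by 1.75 ± 0.32 to 4 weeks (adjusted p = 9.45e-04) and was 2.82-fold higher at 1.5 years than at 14 weeks (1.50 ± 0.32, adjusted p = 0.00655), and neither call was lost without any single library (adjusted p up to 0.0069 and 0.0385). In a joint fit of all 27 samples the change from postnatal day 1 to 4 weeks was 3.77 ± 0.58 higher in fibroblasts than in hearts (adjusted p = 1.85e-04). Thbs4 was the 1 member of 10 whose early change differed between the tissues, beside 7.14% of 20650 genes, and the call held without each library in turn (3.43 to 4.22). For 1.5 years against postnatal day 1 it was again the 1 member called (2.00 ± 0.60, adjusted p = 0.0276), beside 13.6%, but without fibroblast 1.5-year replicate 4 the difference was 0.81 (adjusted p = 0.469), and without day 1 replicate 1 or 2 of the fibroblasts, day 1 replicate 1 of the hearts or any single heart of 1.5 years the adjusted p was 0.0537 to 0.0783. With median-of-ratios size factors it was 0.0522. For 14 weeks against 4 weeks edgeR called none of the 10, beside 0.692%. At an unadjusted p under 0.05 the number was 3 and DESeq2 called 1, with no matching shares of all genes given here. The cardiomyocyte marker sum of the sorted fibroblasts was 670 to 726 CPM at postnatal day 1 and 13.8 to 167 CPM at all later ages, and its part in the Thbs4 difference was not tested.

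Over the 5 ages 9 of the 10 genes were higher in fibroblasts than in hearts, all but Spp1, beside 56.8% of all genes called and 27.7% called higher. The fitted mean ratio was largest for Thbs1 (68.7-fold, 6.10 ± 0.21 on the log2 scale, adjusted p = 6.76e-18) and Tnxb (43.9-fold), between 15.5-fold and 21.8-fold for Postn, Tnc, Thbs2, Thbs3 and Fn1, and lowest for Sparc (5.91-fold) and Thbs4 (3.96-fold). The Thbs1 ratio was 50.8 at postnatal day 1, 20.6 at 14 weeks and 151 at 1 year, and the Tnc ratio 15.2, 17.2 and 98.8. Of these 9 genes Thbs4 was the 1 with higher levels in the hearts than in the fibroblasts at postnatal day 1, with a ratio of 0.427 and no overlap of samples. Its ratio rose to 5.84 at 4 weeks, 13.8 at 14 weeks and 16.6 at 1 year and was 1.71 at 1.5 years, where the samples of both tissues overlapped. The 12 immediate early and heat shock genes summed to 12690 to 44670 CPM in the fibroblasts and to 177 to 616 CPM in the hearts. The part of cell handling in the ratios between the tissues was not tested.

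**Figure D4:**
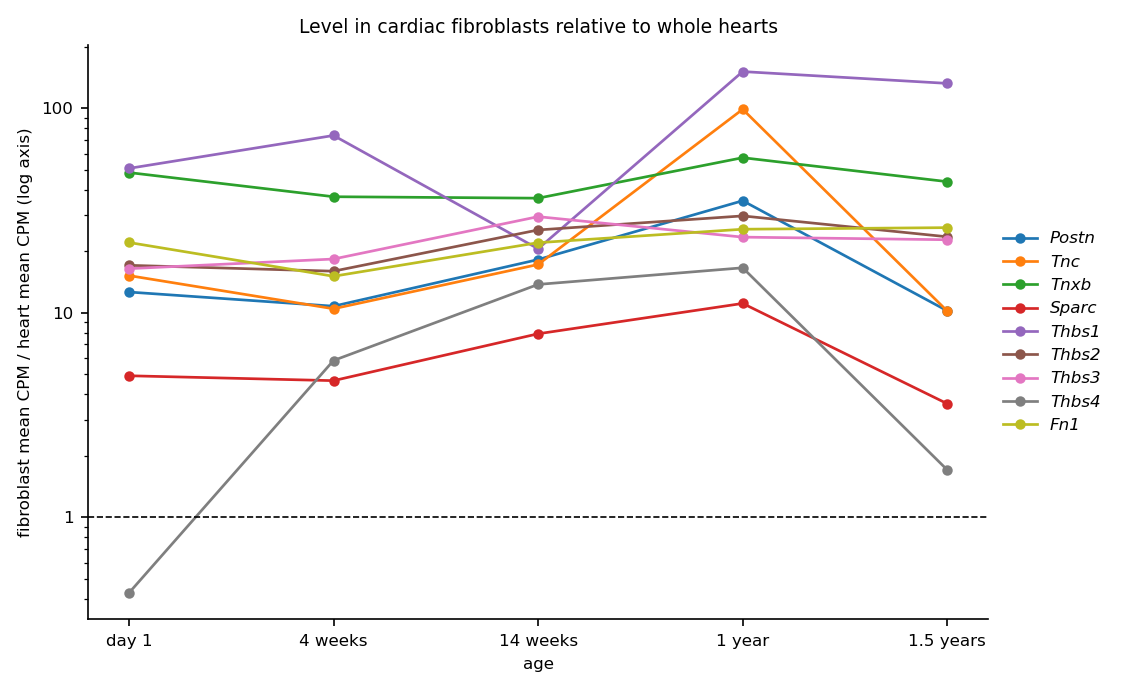
Mean level in fibroblasts divided by mean level in whole hearts (vertical axis, log scale, joint scaling of both tissues) at each age (horizontal axis) for each gene but Spp1, with the dashed line at equal levels. Thbs4 starts at 0.427 and reaches 16.6 at 1 year, while Tnxb stays between 36.3 and 57.3.

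Levels of different genes were set beside each other per kilobase of exon. The divisor joins all annotated exons of a gene, 3788 bases for Sparc and 8702 for Postn. It can exceed the mRNA made in these cells, so the order depends on the lengths taken. In CPM, Postn was above Sparc in the fibroblasts of postnatal day 1 (means of 8189 and 5347). Per kilobase, Sparc was the most abundant of the 10 in both tissues at every age. In the fibroblasts it went from 1840 ± 62.6 CPM per kb (SD, n = 3) at 4 weeks to 442 ± 130 (n = 2) at 1.5 years. On this scale Postn (941 ± 220) and Fn1 (641 ± 114) followed Sparc in the fibroblasts of postnatal day 1, and Tnxb (191 ± 12.8) was in the fifth place. From 4 weeks on Tnxb was in the second place in both tissues, at 383 to 561 CPM per kb in the fibroblasts and 7.39 to 8.94 in the hearts. At 1.5 years Thbs1 (304 ± 27.2 CPM per kb) stood in the third place in the fibroblasts, above Postn (72.3 ± 32.9) and Fn1 (62.8 ± 16.6). The orders of Sparc and Tnxb and of Postn and Fn1 in those samples were within their spread, as was that of Tnxb, Postn and Fn1 in the hearts of 4 weeks.

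Of 14 receptor genes 7 were called in fibroblasts between postnatal day 1 and 4 weeks, 5 higher and 2 lower, with a median change of 0.59. Over all genes 15.5% were called, 9.28% higher and 6.2% lower. Lrp1, which clears thrombospondins and other matrix ligands from the cell surface, went from 2376 ± 77.6 to 6889 ± 393 CPM (1.54 ± 0.11, adjusted p = 1.46e-06). Cd47, a receptor for thrombospondin 1, rose by 1.04 ± 0.12 (adjusted p = 6.5e-05) and Itgb5, the β5 integrin chain, by 0.80 ± 0.12 (adjusted p = 6.28e-04). The 2 that fell were Itga8, the α8 integrin chain that binds fibronectin and osteopontin (159.9 ± 27.7 to 31.4 ± 11 CPM, -2.35 ± 0.23, adjusted p = 1.95e-05), and Itgb3 (-0.94 ± 0.24, adjusted p = 0.0183). In the hearts Lrp1 rose by 1.80 ± 0.22 (adjusted p = 2.32e-05) and Cd47 by 0.79 ± 0.19 (adjusted p = 0.00651), while Itgb5 (0.54, adjusted p = 0.0876), Itga8 (-0.99, adjusted p = 0.223) and Itgb3 (-0.88, adjusted p = 0.607) were not called.

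Among other matricellular genes, rises were more frequent than falls. Of 16 such genes 14 could be tested in the fibroblasts, and 9 were called from postnatal day 1 to 4 weeks, 8 higher and 1 lower, with a median of 0.65 against -0.87 for the 10 described here. Rises also outnumbered falls over all genes, of which 15.5% were called, 9.28% higher and 6.2% lower. The members and the lists were chosen with earlier results of these data known, so the contrast between them is a description only. Tgfbi, an adhesive protein induced by TGF-β, went from 45.1 ± 6.52 to 359.7 ± 30.2 CPM (2.99 ± 0.13, adjusted p = 4.35e-08). The CCN family member Wisp2 went from 1.44 ± 0.36 to 34.1 ± 5.76 CPM (4.57 ± 0.23, adjusted p = 8.86e-08), and Ctgf, the connective tissue growth factor, from 85.7 ± 18.8 to 434.1 ± 151.2 CPM (2.34 ± 0.26, adjusted p = 5.56e-05). Wisp1, of the same family, fell from 12.5 ± 1.59 to 1.37 ± 0.38 CPM (-3.19 ± 0.77, adjusted p = 0.0128). In the hearts Wisp2 rose (3.16 ± 0.74, adjusted p = 0.00583) and Wisp1 fell (-2.84 ± 0.85, adjusted p = 0.028), whereas Tgfbi (-0.15 ± 0.29, adjusted p = 0.785) and Ctgf (-0.66 ± 0.34, adjusted p = 0.205) were not called. The difference between tissues passed the test for Tgfbi (3.15 ± 0.36, adjusted p = 5.19e-06) and Ctgf (3.01 ± 0.49, adjusted p = 3.31e-04). The part of cell handling in these differences was not tested.

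Across the 12 fibroblast samples, the level of Postn correlated with that of Tnc (Pearson's r = 0.959 on log2 CPM) and Fn1 (0.939), and inversely with Tnxb (-0.761). In the 15 hearts these values were 0.906, 0.86 and -0.737. The pair of Tnxb and Thbs4 had r = 0.807 in the fibroblasts and -0.654 in the hearts. These correlations describe samples that share ages and hold no test. Over 8818 genes with a mean of 10 CPM or more, those most like Postn in the fibroblasts were Ptk7, Adgra2 and Gpsm2 (r from 0.975 to 0.976), and those most like Fn1 were H1f0, Mfap2 and Adamts7 (0.968 to 0.977). Tnc was closest to Postn, Eif4ebp1 and Adam12, Tnxb to Praf2, Cilp and Crip1 (0.977 to 0.982), Sparc to C1qtnf6, Kif2a and Col3a1 (0.935 to 0.978), and Thbs4 to Gng12, Tmed10 and Pam (0.934 to 0.94). Thbs1, Thbs2 and Spp1 had ribosomal protein genes or a ribosomal pseudogene among their closest 3, with r between 0.908 and 0.955, and Thbs3 had Nfatc4, Ctdsp2 and Pfn1 (0.932 to 0.94).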

How the data were processed

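Polyadenylated RNA from flow-sorted PDGFRα cardiac fibroblasts and from whole hearts was sequenced by the authors. The read counts per gene were deposited as raw counts, 1 table per tissue, aligned with STAR 2.5.3a to mm10 per the labels (submitters' processing notes). The annotation and strand setting of the counting are not given in the sources used here, so reads of genes overlapping on opposite strands cannot be told apart.

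Samples were grouped by tissue and age from the labels. Counts were fitted in R 4.3.3 with edgeR 4.0.16 (TMM scaling, filterByExpr, quasi-likelihood F test, age group as the only factor, all samples of a tissue together). A joint fit of all 27 samples, taken as independent, gave the tissue comparisons. P-values were Benjamini-Hochberg adjusted over all genes tested. SEs were taken as |log2 fold change| over √F. CPM (counts relative to the scaled library size) were computed here. CPM per kb used the joined length of all GENCODE M21 exons of a gene (GRCm38). DESeq2 1.42.0, other scalings and filters, the 2 ages compared alone, a replicate block and each library left out in turn were alternatives; an offset for transcript length was added after seeing the data. The code was tested on simulated data.

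No 2 of the libraries in a group were identical (24 pairs compared). The 10 genes are all named. Of the receptor and other matricellular lists, the 3 with the smallest adjusted p in each direction from postnatal day 1 to 4 weeks in fibroblasts were named, and, for each member, the 3 genes with the highest Pearson correlation of log2 CPM over the fibroblast samples among genes with a mean of 10 CPM or more. Members and lists were chosen with earlier results of these data known. Limits from a count of 0 cover counting error only.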

Additional observations from a re-analysis of the deposited data

Results flagged for a closer look

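Thbs4 was the member whose change with age differed between fibroblasts and whole hearts by a direct test of the difference, an interaction term in the edgeR fit of all 27 samples. From postnatal day 1 to 4 weeks the log2 fold change was 3.77 higher in the fibroblasts, and between postnatal day 1 and 1.5 years it was 2.00 higher. The first value kept its call without each library in turn, while the second rested on fibroblast 1.5-year replicate 4, without which it was 0.81 (adjusted p = 0.469). The groups of 2 or 3 samples were too small for a search for single deviating samples.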

How the results depend on the processing

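Of the single-gene results reported or called under any setting, 95 kept their direction and side of the threshold with DESeq2 and 16 more passed, and with median-of-ratios size factors 106 kept theirs. With library totals alone the heart change of Sparc from postnatal day 1 to 4 weeks reversed to -0.0467 (adjusted p = 0.867), the uncalled fibroblast change of Postn from 14 weeks to 1.5 years to -0.11 and the uncalled tissue difference of Tnxb at 1.5 years to 0.27. Over all genes the median moved by -0.18 in fibroblasts of 1 year and of 1.5 years against 14 weeks, by -0.15 in those of 1.5 years against postnatal day 1, by -0.24 in hearts of 14 weeks against 4 weeks and by 0.12 in hearts of 1.5 years against 14 weeks. The number of members called in fibroblasts at 1 year against 14 weeks, 3, was 6 with DESeq2, 7 with the 2 ages alone and 5 with the length offset, an alternative chosen after seeing the data. At 1.5 years against 14 weeks, 2, it was 1 with the 2 ages alone, and at 1.5 years against 1 year, 2, it was 5 with DESeq2 and 0 with the 2 ages alone. In hearts, 1 year against 14 weeks went from 0 to 2 with DESeq2 and with the 2 ages alone, 1.5 years against 14 weeks from 1 to 2 with DESeq2, with at least 10 counts in every sample, with the 2 ages alone and with the length offset, and 1.5 years against 1 year from 0 to 1 with DESeq2. The tissue difference at 14 weeks against 4 weeks went from 0 to 1 with library totals alone and with DESeq2. At 1.5 years against postnatal day 1 it went from 1 to 0 with median-of-ratios size factors and to 2 with library totals alone, DESeq2 or the length offset. The cause of these shifts was not tested. For counts under other settings, with single libraries left out or with a replicate block, the share of all genes is not given here.

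Leaving out each library in turn, the fibroblast counts ranged from 7 to 9 for 4 weeks against postnatal day 1, from 0 to 4 for 14 weeks against 4 weeks and for 1 year against 14 weeks, from 0 to 2 for 1.5 years against 14 weeks, from 0 to 3 against 1 year and from 5 to 7 against postnatal day 1. The heart counts ranged from 5 to 8, 2 to 3, 0 to 0, 1 to 3, 0 to 1 and 5 to 8 in the same order. The tissue difference counts ranged from 1 to 1, 0 to 0 and 0 to 1 for 4 weeks against postnatal day 1, 14 weeks against 4 weeks and 1.5 years against postnatal day 1, and the fibroblast to heart count stayed at 9. Across the 5 ages the ranges were 9 to 10 and 7 to 10. Of uncalled values that changed sign, the fibroblast change of Postn from 14 weeks to 1.5 years ranged from -0.49 to 0.47, that of Thbs1 between postnatal day 1 and 1.5 years from -0.30 to 0.14, the tissue difference of Tnxb at 1.5 years from -0.49 to 0.047 and the fibroblast to heart difference of Spp1 from -0.82 to 0.88. With the length offset the latter was 0.031 and the heart change of Fn1 from 14 weeks to 1.5 years 0.013. Where leaving out a library left 1 sample at an age, it was assumed to vary like the others.

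Within a tissue, same-numbered samples of different ages did not deviate together (r from -0.0316 to 0.0356 over 7 fibroblast pairs and from -0.0619 to 0.102 over 30 heart pairs). With 2 samples at an age the deviations mirror each other, so the pairs are not separate observations. Of the samples, 4 of 11 fibroblast and 4 of 15 heart samples correlated best with their own number, so the numbers were not taken as pairing. The study sequenced fibroblasts and also the hearts that yielded them. The labels do not tie these together, no pairing between the tissues was checked, and the joint fit took all 27 samples as independent. With a replicate block the fibroblast counts were 6 at 1 year against 14 weeks and 5 at 1.5 years against 1 year.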
